A study of Mus musculus with 36 samples.

Results

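The genes described here encode the proteins of the cytosolic ribosome. They were chosen by name from the 56184 gene rows of the deposited count table: symbols that start with Rpl or Rps followed by a digit, plus Rplp0, Rplp1, Rplp2 and Rpsa, without rows marked -ps (pseudogenes) and without the Rps6k kinases. Of 96 matching rows, 91 averaged at least 1 CPM (a count scaled to a common library size) over the 36 libraries and form the set. The set holds 77 canonical ribosomal proteins, with 46 of the large and 31 of the small subunit. A further 13 are copies or paralogues by name, such as Rpl22l1 and Rps27l. The last, Rps19bp1, is a binding partner of Rps19 and was matched by its name only. The 5 rows left out averaged 0.101 CPM (Rpl27rt), 0.187 CPM (Rps23rg1), 0.367 CPM (Rpl10l), 0.407 CPM (Rpl3l) and 0.789 CPM (Rpl39l), and the lowest rows kept averaged 1.78 CPM (Rpl32l), 5.83 CPM (Rpl29) and 6.92 CPM (Rps3a3). All 91 also passed the filter on low counts and were tested among 16255 genes.

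A cytosolic ribosome joins a small subunit, which reads the mRNA, and a large subunit, which forms the peptide bond, and it needs 1 copy of nearly every ribosomal protein beside its ribosomal RNAs. The mRNAs of these proteins start with a run of C and T bases, the terminal oligopyrimidine (TOP) tract, through which mTORC1, a kinase that senses nutrients, controls how much of them is translated. In the brain ribosomes are made in every cell type, and neurons also carry ribosomal protein mRNAs into their processes.

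The samples were 10 mg pieces of frozen brain from mice at postnatal day 19, measured by RNA sequencing primed from the poly(A) tail. The 4 groups were Gpt2 knockout (KO) given dm-αKG (KO-aKG, n = 8), KO given vehicle (KO-Veh, n = 10), wild type (WT) given dm-αKG (WT-aKG, n = 8) and WT given vehicle (WT-Veh, n = 10). Gpt2 is the mitochondrial alanine transaminase, and dm-αKG, an ester of its substrate α-ketoglutarate, was injected into the abdomen at 600 mg per kg. No source used here gives the part of Gpt2 that was deleted, the strain, the sex or the brain region, or says that each library came from a separate animal. The p-values thus cover only library-to-library spread, which may be technical.

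Gpt2 itself stood at 0.881 to 3.30 CPM in the KO libraries and at 22 to 39 CPM in the WT libraries. Library totals were 5.77 to 13.3 M counts. Mitochondrial genome transcripts took 22.6% to 46.7% of them. In 9 libraries the mean log2 CPM of 19 cerebellum markers lay more than 1 above the mean of all libraries. These cerebellum-high libraries numbered 1 of 8 in KO-aKG, 1 of 10 in KO-Veh, 4 of 8 in WT-aKG and 3 of 10 in WT-Veh and were unevenly spread over the groups. All 19 markers were detected. The calls and medians of the whole family are given below with and without these libraries, and also with the scores of cerebellum, striatum and oligodendrocyte markers as covariates; single genes and smaller lists are given with all libraries. Other marker scores differed between groups too. The mean log2 CPM of oligodendrocyte markers was 7.5 in KO-aKG, 6.66 in KO-Veh, 7.25 in WT-aKG and 7.06 in WT-Veh, and that of choroid plexus markers was 2.16, 1.38, 2.13 and 2.33 in the same order. Their part in the results was not tested beyond those covariates. In bulk tissue, fewer cells of a type and less RNA per cell cannot be told apart.

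The start of the transcript is where the TOP tract lies, so the 30 bases around the start annotated by RefSeq (GRCm38.p6) are shown for some of the genes the results turn on. Each line gives 15 bases before and 15 bases from the annotated start, on the transcript's strand, with the longest unbroken run of C and T in capitals. Where a gene has several starts, the one with the tract, as searched below, is shown. The capitals mark the longest run, which need not be that tract. In Rps27l the capitals lie before the annotated start, and the match of the search is the lower-case cctct just after it. Rpl36al, Rpl27, Rpl19, Rpl6 and Rps24 are among the genes called below. Rps27 stands beside its paralogue Rps27l, Rpl22l1 and Rpl7l1 are further paralogues, and Rpl26 and Rpl35a are the members that divided the libraries.
Rpl36al (chr12:69184053-69184082, minus strand): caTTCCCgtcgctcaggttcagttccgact
Rpl27 (chr11:101442230-101442259, plus strand): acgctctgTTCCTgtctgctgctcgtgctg
Rpl19 (chr11:98026909-98026938, plus strand): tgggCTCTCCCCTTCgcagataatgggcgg
Rpl6 (chr5:121204486-121204515, plus strand): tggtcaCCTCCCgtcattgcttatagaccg
Rps24 (chr14:24490663-24490692, plus strand): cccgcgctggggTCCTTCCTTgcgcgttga
Rps27 (chr3:90213634-90213663, minus strand): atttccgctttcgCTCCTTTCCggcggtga
Rps27l (chr9:66946071-66946100, plus strand): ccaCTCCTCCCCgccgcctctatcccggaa
Rpl22l1 (chr3:28805493-28805522, plus strand): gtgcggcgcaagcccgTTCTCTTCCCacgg
Rpl7l1 (chr17:46782642-46782671, minus strand): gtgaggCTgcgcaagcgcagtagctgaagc
Rpl26 (chr11:68901551-68901580, plus strand): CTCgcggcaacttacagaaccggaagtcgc
Rpl35a (chr16:33056467-33056496, plus strand): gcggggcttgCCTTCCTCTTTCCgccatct

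A promoter entry existed for 65 of the 91 members. The tract was searched as a C followed by at least 4 bases that are each C or T, on the transcript's strand only, beginning within 5 bases of the annotated start. It was present in 31 of these 65 members (47.7%), against 2740 of the 11336 tested genes with an entry (24.2%). Anywhere in the 30-base window it was present in 41 members (63.1%), against 43.4% of the tested genes with an entry. The longest run of C and T in the window had a median of 7 bases in the members and 5 bases in the tested genes. Whether the tract falls near the start depends on where an annotation puts the start, and no match says only that these letters are not in the window.

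The 91 genes together took 3.12% to 5.78% of a library's counts and 4.48% over all libraries. The share was 5.30% ± 0.387 in KO-aKG, 4.66% ± 0.529 in KO-Veh, 4.39% ± 0.240 in WT-aKG and 3.79% ± 0.453 in WT-Veh (mean ± SD, n = 8, 10, 8 and 10). Every KO-aKG library (4.84% to 5.78%) lay above every WT-aKG library (4.01% to 4.75%), while KO-Veh (4.11% to 5.76%) and WT-Veh (3.12% to 4.45%) overlapped. These shares are of all counts, and the mitochondrial share of those counts averaged 29.4% in KO-aKG, 33.7% in KO-Veh, 34.0% in WT-aKG and 35.6% in WT-Veh. Of the counts outside the mitochondrial genome the 91 genes took 6.56% to 8.54% in KO-aKG and 5.59% to 7.54% in WT-aKG, and these ranges overlapped. The part of the mitochondrial share in the differences was not tested.

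Scaling by TMM, which sets libraries on a common scale from genes that change little, gave a narrower picture. The median log2 CPM over the 77 canonical genes was 8.90 ± 0.187 in KO-aKG and 8.83 ± 0.222 in WT-aKG (SD, n = 8 each), and 8.90 ± 0.294 in KO-Veh and 8.61 ± 0.305 in WT-Veh (SD, n = 10 each). All 4 groups overlapped on this scale. The 9 cerebellum-high libraries lay at 8.24 to 8.82 and the other 27 at 8.27 to 9.30. Among WT-aKG libraries the 4 cerebellum-high ones lay at 8.53 to 8.75, below the other 4 at 8.88 to 9.19.

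**Figure D1:**
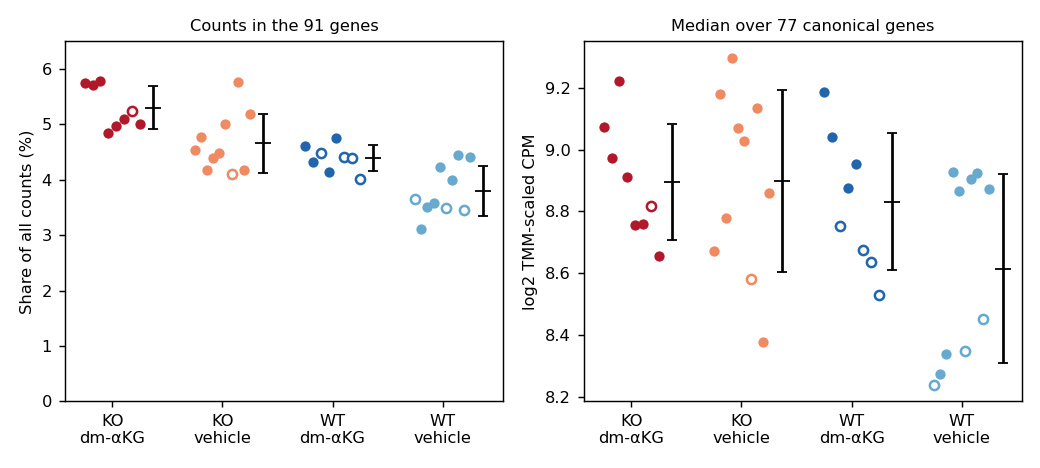
Left, the share of each library's counts in the 91 genes (percent); right, the median log2 TMM-scaled CPM over the 77 canonical genes, for KO and WT libraries given dm-αKG or vehicle. Each point is a library, open points are the 9 cerebellum-high libraries, and the bar beside each group is its mean ± SD; the shares of KO dm-αKG libraries (4.84% to 5.78%) all lie above those of WT dm-αKG libraries (4.01% to 4.75%), while on the right all groups overlap.

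On the TMM scale the genes moved together from library to library. The level of a canonical gene had a median SD of 0.312 log2 units over the 36 libraries. Divided by the median of the other canonical genes in the same library (its relative level), the median SD was 0.156, and it was smaller in all 77. A TMM factor scales all genes of a library alike. The factors ran from 0.672 in KO-Veh replicate 4 to 1.35 in KO-Veh replicate 9. There the 91 genes took 4.4% and 4.17% of all counts, while the canonical median was 9.30 and 8.38 log2 CPM. The part of the scaling in the shared movement was not tested. Rplp2, a protein of the ribosomal stalk, kept the closest to the others with an SD of 0.069. In 8 of the 91 genes the SD of the relative level was above 0.3. They were Rpl26, Rps4l, Rpl35a, Rps2, Rps27l, Rpl7l1, Rpl22l1 and Rpl12, of which 4 are paralogues by name.

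**Figure D2:**
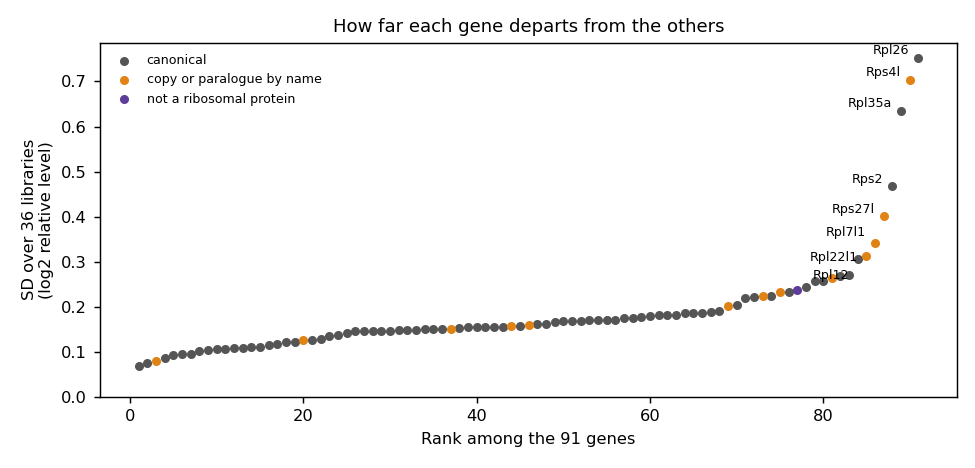
SD over 36 libraries of each gene's log2 relative level (its CPM divided by the median of the other canonical genes in the library), with the 91 genes ranked along the x axis. Most genes lie below 0.3, and the 8 above it are named, with Rpl26 highest at 0.752.

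In vehicle-treated brains, KO against WT, 3 ribosomal protein genes rose and none fell: Rpl36al, Rpl7 and Rpl27, all of the large subunit. A gene was called where edgeR's quasi-likelihood test gave a Benjamini-Hochberg adjusted p under 0.05 over the 16255 genes, and in this comparison 4.31% of all genes were called, 2.6% as higher and 1.72% as lower. The members' share called higher (3 of 91) is near that background. The members' fold changes were small and mostly of 1 sign: the log2 fold change was positive in 89 of 91 members and its median was 0.27, against a median of -0.02 and 46.7% positive over all genes tested. Unadjusted p was under 0.05 for 55 of 91 members, against 21% of all genes. The members move together across libraries, so these counts do not stand for 91 separate observations.

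Rpl36al, a close relative of the X-linked Rpl36a, had a lowest, median and highest level of 58.9, 96.3 and 131 CPM in KO-Veh libraries, against 60.2, 76.8 and 90.3 CPM in WT-Veh libraries. The groups overlapped, and the KO median lay above the highest WT library. Its log2 fold change was 0.35 (SE 0.09, edgeR adjusted p = 0.0206). Rpl7, a large-subunit protein, stood at 289, 385 and 520 CPM in KO-Veh, against 263, 310 and 368 CPM in WT-Veh, a log2 fold change of 0.30 (SE 0.08, edgeR adjusted p = 0.0269). Rpl27, another large-subunit protein, stood at 424, 647 and 816 CPM in KO-Veh, against 415, 529 and 618 CPM in WT-Veh, a log2 fold change of 0.32 (SE 0.09, edgeR adjusted p = 0.0377). For Rpl7 and Rpl27 too, the KO median exceeded every WT library while the lowest KO library lay inside the WT range. Highest by fold change was Rpl12, which forms the base of the stalk, at 248, 619 and 749 CPM in KO-Veh and 196, 386 and 590 CPM in WT-Veh, with a log2 fold change of 0.55 that did not pass (SE 0.21, edgeR adjusted p = 0.129). At the other end Rps4l, a paralogue of Rps4x, had a log2 fold change of -0.25 (SE 0.21, edgeR adjusted p = 0.511).

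None of the 3 calls was kept without the 9 cerebellum-high libraries, where 0 members were called and the members' median was 0.22. The count was also 0 with no filter on low counts and with only the 2 compared groups fitted. With the marker scores as covariates Rpl36al and Rpl7 were called and the median was 0.16, against -0.01 over all genes. The share of all genes called is not given for these fits, so their member counts have no background beside them. Leaving out single libraries moved the number called, and the share of all genes called in the same fit is given in brackets. The number was 0 without KO-Veh replicate 4 (2.88%), 1 without WT-Veh replicate 6 (3.02%) and 7 without WT-Veh replicate 5 (4.21%). It was 19 without KO-Veh replicate 9 (5.35%). It was 20 without KO-Veh replicate 7 (10.3%), which is the cerebellum-high library of its group. With libraries scaled by their totals in place of TMM it was 18, and 256 of all genes were called.

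**Figure D3:**
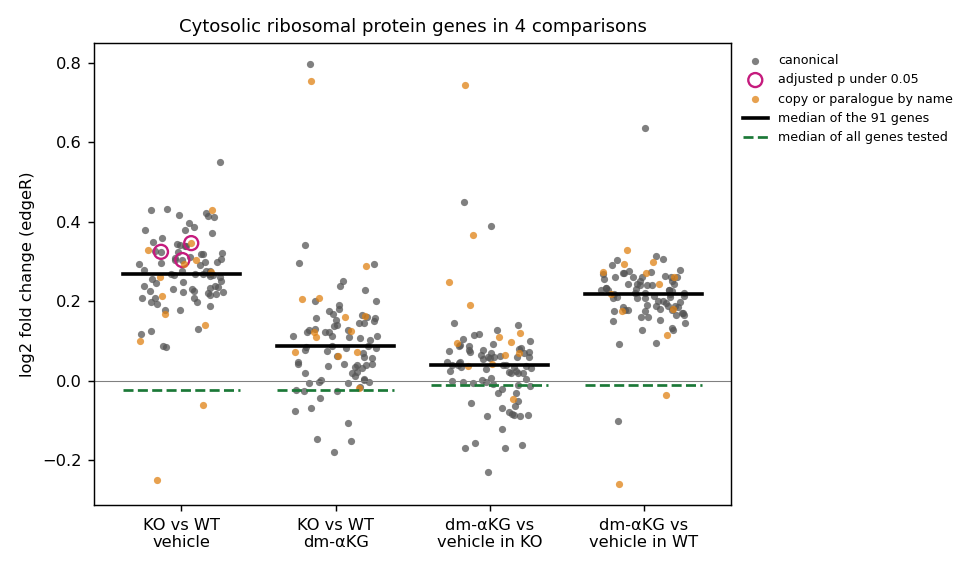
Log2 fold change (edgeR, y axis) of each canonical gene (grey) and each copy or paralogue (orange) in 4 comparisons (x axis); Rps19bp1 is not drawn. The black line is the median of the 91 genes, the dashed green line the median of all genes tested, and rings mark adjusted p under 0.05; the black line is at 0.27 for KO against WT with vehicle and at 0.087 with dm-αKG, and rings appear in the vehicle comparison only.

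With dm-αKG, KO against WT, 0 of 91 members passed (edgeR), while 1.87% of all genes did, 1.12% as higher and 0.751% as lower. Unadjusted p was under 0.05 for 2 members, Rps4l and Rpl26, against 15.7% of all genes. The median log2 fold change was 0.087 with 75 of 91 positive, against -0.02 over all genes. Rps4l stood at 11.5, 19.3 and 37.9 CPM in KO-aKG, against 4.02, 12.9 and 23.5 CPM in WT-aKG, a log2 fold change of 0.75 (SE 0.23, edgeR adjusted p = 0.0878). Its groups overlapped, and the lowest library, WT-aKG replicate 1, was followed by 1 at 10.3 CPM. DESeq2 called 1 member in this comparison. Without WT-aKG replicate 8 edgeR called 1, with 1.87% of all genes called. The lowest fold changes belonged to Rpl29, at 3.82, 5.25 and 7.67 CPM in KO-aKG and 4.49, 6.21 and 9.04 CPM in WT-aKG (edgeR log2 fold change -0.18, SE 0.20, adjusted p of 0.717), and to Rplp0, a stalk protein (-0.15, SE 0.14, edgeR adjusted p = 0.643). The sign for Rplp0 turned with libraries scaled by their totals (0.0208).

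The sign of the family's median in this comparison turned without the cerebellum-high libraries, where 36 of 91 members were positive and the median was -0.02, with 0 called. With the marker scores as covariates the median was 0.072, against 0.0035 over all genes, and leaving out 1 library at a time gave 0.0536 to 0.136. Scaled by library totals the median was 0.26 and 9 members were called, but the median of all genes was then 0.14, so that the family stood 0.119 above all genes, against 0.109 with TMM.

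Averaged over both treatments, the genotype effect called 8 members as higher and none as lower, against 11.9% of all genes called, 5.7% as higher and 6.17% as lower. The members' share called higher (8 of 91) is again of the order of the background. Beside Rpl36al (log2 fold change 0.25, SE 0.07, edgeR adjusted p = 0.012), Rpl7 (0.23, SE 0.06, adjusted p = 0.0132) and Rpl27 (0.23, SE 0.07, adjusted p = 0.0293), the calls were Rpl6, Rps24, Rps27a, Rpl19 and Rpl6l. Rps24, a small-subunit protein, rose the most (0.39, SE 0.12, adjusted p = 0.0274). Rps27a, a small-subunit protein made as a fusion with ubiquitin, rose by 0.32 (SE 0.10, adjusted p = 0.0324). Rpl19, a large-subunit protein that bridges the subunits, rose by 0.27 (SE 0.08, adjusted p = 0.0327), Rpl6 by 0.25 (SE 0.07, adjusted p = 0.0211) and the row Rpl6l by 0.22 (SE 0.07, adjusted p = 0.0483). The median over the 91 genes was 0.19, with 89 positive.

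Rpl6 illustrates how the groups lay. It stood at 248, 269 and 304 CPM (lowest, median, highest) in KO-aKG, 204, 264 and 314 CPM in KO-Veh, 195, 237 and 277 CPM in WT-aKG and 138, 212 and 253 CPM in WT-Veh. Rps24 had a wider spread, at 923, 1050 and 1410 CPM in KO-aKG, 582, 1050 and 1500 CPM in KO-Veh, 686, 868 and 1110 CPM in WT-aKG and 457, 831 and 1180 CPM in WT-Veh. The KO and WT ranges overlapped for both genes under both treatments. For all 91 members the groups overlapped in each of the 4 comparisons of 2 groups. The share of all genes with such overlap was not counted.

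Without the cerebellum-high libraries 0 members were called in the average effect, with a median of 0.099 and 76 positive. With the marker scores as covariates 2 were called, Rpl36al and Rpl7, with a median of 0.11. For these fits too the share of all genes called is not given. With library totals 65 were called, beside 1429 of all genes. Single libraries moved the count, and the share of all genes called in the same fit is given in brackets. The count was 4 without WT-aKG replicate 6 (8.89%), KO-Veh replicate 4 (10.4%) or KO-aKG replicate 2 (9.18%). It was 5 without WT-aKG replicate 8 (10.4%) or KO-aKG replicate 1 (9.57%). It was 13 without KO-Veh replicate 1 (11.3%) and 19 without WT-Veh replicate 5 (12.8%). It was 20 without KO-Veh replicate 7 (18.2%) and 23 without KO-Veh replicate 9 (12.2%).

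**Figure D4:**
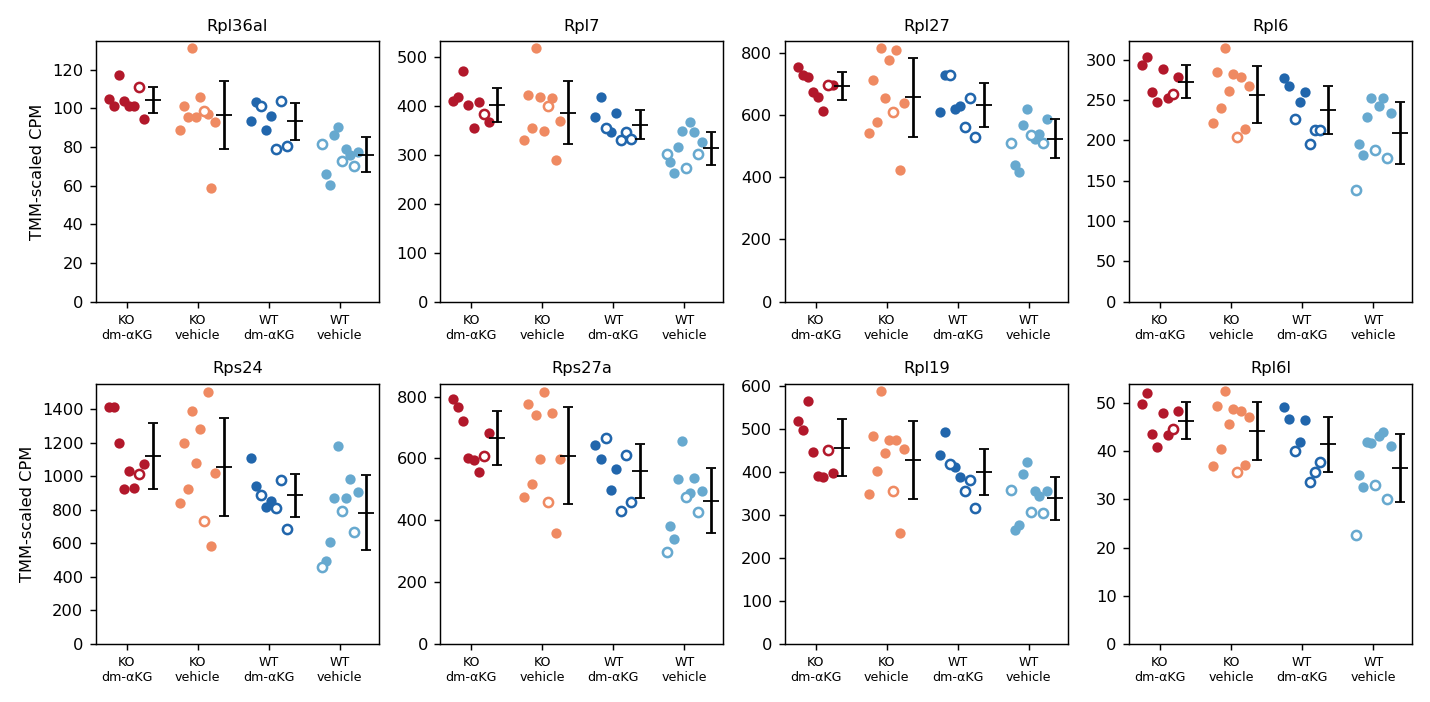
TMM-scaled CPM (y axis, from 0) in each library for the 8 genes called in the average genotype effect; open points are cerebellum-high libraries and the bar is the mean ± SD of a group (n = 8, 10, 8 and 10). In each panel the KO mean exceeds the WT mean under the same treatment, and single libraries of KO and WT overlap.

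No member passed for treatment with dm-αKG in either genotype by edgeR's test, and no gene of the 16255 was called (0% of all genes in KO and in WT). In WT brains the median log2 fold change was 0.22 with 88 of 91 positive, and 18 had an unadjusted p under 0.05, against 8.55% of all genes. Rpl36al, for example, stood at 79.0, 94.8 and 104 CPM in WT-aKG, against 60.2, 76.8 and 90.3 CPM in WT-Veh (log2 fold change 0.30, SE 0.09, edgeR adjusted p = 0.284). In KO brains the median was 0.040 with 64 positive and 2 members at an unadjusted p under 0.05, against 12.1% of all genes. DESeq2 called 71 genes in WT and 0 in KO, none of them members, with 20 members in WT and 2 in KO at an unadjusted p under 0.05. The treatment effect in WT and the vehicle genotype effect share the WT-Veh libraries, so they are given side by side and their likeness is not a result. Without the cerebellum-high libraries the median was 0.24 in WT and 0.022 in KO. With the marker scores as covariates it was 0.23 in WT and 0.15 in KO, and without KO-Veh replicate 9 it was -0.0043 in KO. Scaled by library totals it was 0.21 in KO, where the median of all genes was 0.125.

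The interaction, which asks whether the genotype effect differs between dm-αKG and vehicle, called no gene (0% of all genes). The members' median was -0.19, with 87 of 91 negative, against -0.01 over all genes. Unadjusted p was under 0.05 for 2 members, against 4.48% of all genes, and the lowest edgeR adjusted p was 0.961. DESeq2 called 0 members as well, with 2 at an unadjusted p under 0.05. A difference between the genotype effects was therefore not shown for any member. Scaled by library totals the members' median was -0.01 while that of all genes was 0.145, so the family lay 0.154 below all genes, against 0.178 below with TMM. The median was -0.24 without the cerebellum-high libraries and -0.10 with the marker scores as covariates.

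Ordered by role, the parts of the ribosome gave close values in the vehicle genotype effect. The 46 large-subunit genes had a median of 0.27 with 46 positive and 2 called, and the 31 small-subunit genes had a median of 0.28 with 31 positive and 0 called (21 at an unadjusted p under 0.05). With dm-αKG these medians were 0.066 and 0.11 over all libraries, and as given above the median of the whole family turned to -0.02 without the cerebellum-high ones. The stalk, which recruits translation factors, had log2 fold changes with vehicle of 0.42 for Rplp1 (SE 0.19), 0.21 for Rplp2 (SE 0.11) and 0.20 for Rplp0 (SE 0.13), and none passed (lowest edgeR adjusted p = 0.207). The pair that carries 5S ribosomal RNA and can hold Mdm2, the inhibitor of p53, had 0.31 (Rpl5, SE 0.14) and 0.20 (Rpl11, SE 0.10), and neither passed (lowest edgeR adjusted p = 0.205). The 4 X-linked members Rpl10, Rpl36a, Rpl39 and Rps4x lay between 0.19 and 0.30 and none passed (lowest edgeR adjusted p = 0.185).

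The 13 copies and paralogues by name had a median of 0.26 with vehicle, with 11 positive and 1 called (Rpl36al). Rps4l, Rpl7l1 and Rps27l were among the 5 members with the lowest fold changes. Rps27l, a paralogue of Rps27 known as a p53 target, had 0.10 (SE 0.14, edgeR adjusted p = 0.704), against 0.31 for Rps27 (SE 0.16, adjusted p = 0.247). Rpl7l1, which acts in ribosome assembly, had -0.06 (SE 0.07, adjusted p = 0.635) and stood at 19.0, 24.1 and 28.7 CPM in KO-Veh, against 22, 24.7 and 32.1 CPM in WT-Veh. Rpl22l1, the paralogue of Rpl22, had 0.17 (SE 0.13, adjusted p = 0.456), against 0.28 for Rpl22 (SE 0.13, adjusted p = 0.211). These differences between paralogues were not tested.

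Rps2, a small-subunit protein near the mRNA entry, and Rps27l differed between the cerebellum-high and the other libraries in their medians. The relative level is given here as a percent of the median of the other canonical genes, an index for comparing libraries only. For Rps2 it was 35% to 67.4% in the 9 cerebellum-high libraries (median 45.4%) and 48.8% to 123% in the other 27 (median 88.7%). Rps27l went the other way, at 28.5% to 44.9% in the cerebellum-high libraries (median 35.4%) and 17.2% to 43.2% in the others (median 23.1%). Rplp1 was also lower there, at 237% to 408% against 349% to 488% in the others. The ranges overlapped for all 3 genes. The cerebellum-high libraries were picked by other genes, and they are not a group of the study.

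Rpl26, a large-subunit protein at the exit of the peptide tunnel, split the libraries into 2 separate sets that the groups do not follow. Its relative level was 67.9% to 94.2% in 16 libraries and 24.5% to 32.0% in the other 20, with none between. The higher set held 5 of 8 KO-aKG, 4 of 10 KO-Veh, 2 of 8 WT-aKG and 5 of 10 WT-Veh libraries. In CPM it stood at 225 to 491 in the higher set and at 81.5 to 196 in the lower.

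The table also holds 5 rows elsewhere in the genome that share at least 50 words of 40 bases with the Rpl26 transcript: Gm15772, Gm10136, Gm8253, Gm13268 and Gm11826. The sequences below show how close they come. They are bases 147 to 206 of the 438-base coding sequence of Rpl26 (chromosome 11) and the matching stretch of its 2 closest copies, read from GENCODE M21 transcripts (GRCm38). Letters that differ from Rpl26 are in capitals, and positions count from 1 at the first base of the start codon.
Rpl26 (gene at chr11:68901583-68906989, plus strand): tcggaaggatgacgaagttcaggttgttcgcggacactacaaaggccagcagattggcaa
Gm15772 (chr5:3236431-3236868, plus strand): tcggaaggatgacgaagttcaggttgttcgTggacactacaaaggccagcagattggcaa
Gm10136 (chr19:29003408-29003842, minus strand): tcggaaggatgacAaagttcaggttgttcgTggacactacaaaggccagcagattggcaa

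Gm15772 differs from the Rpl26 coding sequence at 2 of 438 bases (C177T and T288C) and Gm10136 at 5 of 435 aligned bases. Of the 399 words of 40 bases in the coding sequence, 319 occur in Gm15772 unchanged. The summed level of the 5 pseudogene rows ran against Rpl26: 224 to 464 CPM (median 332) where Rpl26 was high and 312 to 750 CPM (median 536) where it was low. Rpl26 and the 5 rows together gave 449 to 954 CPM (median 679) in the higher set and 394 to 946 CPM (median 674) in the lower. Rpl26 took 50.2% to 53.1% of this sum in the 16 libraries and 19.9% to 21.2% in the 20, so the sum did not divide the libraries and the split of it between rows did.

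The genotype effect of Rpl26 depended on this. Alone it had a log2 fold change of 0.25 with vehicle (SE 0.32, edgeR adjusted p = 0.689), 0.80 with dm-αKG (SE 0.36, adjusted p = 0.267), the highest of all members, and 0.52 on average (SE 0.24, adjusted p = 0.143). Summed with the pseudogene rows that share its words, it had 0.38 with vehicle (SE 0.12, edgeR adjusted p = 0.0623), 0.24 with dm-αKG (SE 0.13, adjusted p = 0.384) and 0.31 on average (SE 0.09, adjusted p = 0.0213), and it then passed in the average effect. That sum was chosen after seeing the data. Outside the pseudogenes, the rows most like the relative level of Rpl26, ranked by Pearson correlation of log2 levels over the 36 libraries in either direction, were Gm57147, for which the annotations used here give no location, and Eif4a1, which encodes an RNA helicase of translation initiation and lies on the same chromosome. Gm57147 stood at 21.6 to 35 CPM in the higher set and 7.88 to 16.5 CPM in the lower, with no overlap. Eif4a1 ran the other way, at 102 to 147 CPM (median 119) and 147 to 257 CPM (median 168). They were picked for this pattern, and its cause was not tested.

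Rpl35a, another large-subunit protein, also divided the libraries, along other lines. Its relative level was 33.5% to 71.6% in 24 libraries and 15.1% to 23.4% in 12. The lower set held 2 of 8 KO-aKG, 6 of 10 KO-Veh, 0 of 8 WT-aKG and 4 of 10 WT-Veh libraries. Both genes were high in 11 libraries and both low in 7, Rpl26 alone was high in 5 and Rpl35a alone in 13. Here the 15 rows that share words with Rpl35a did not make up the difference: the sum with them had a median of 258 CPM in the higher set and 125 CPM in the lower. By the same ranking the row most like it was Iqcg, its neighbour on the opposite strand, whose start lies beside that of Rpl35a, at 3.35 to 19.3 CPM in the higher set and 0.893 to 2.31 CPM in the lower. In WT brains, dm-αKG against vehicle, Rpl35a had the highest log2 fold change of all members (0.64, SE 0.33, edgeR adjusted p = 0.61), and there 0 of 8 WT-aKG and 4 of 10 WT-Veh libraries were in the lower set. The cause of the split was not tested.

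**Figure D5:**
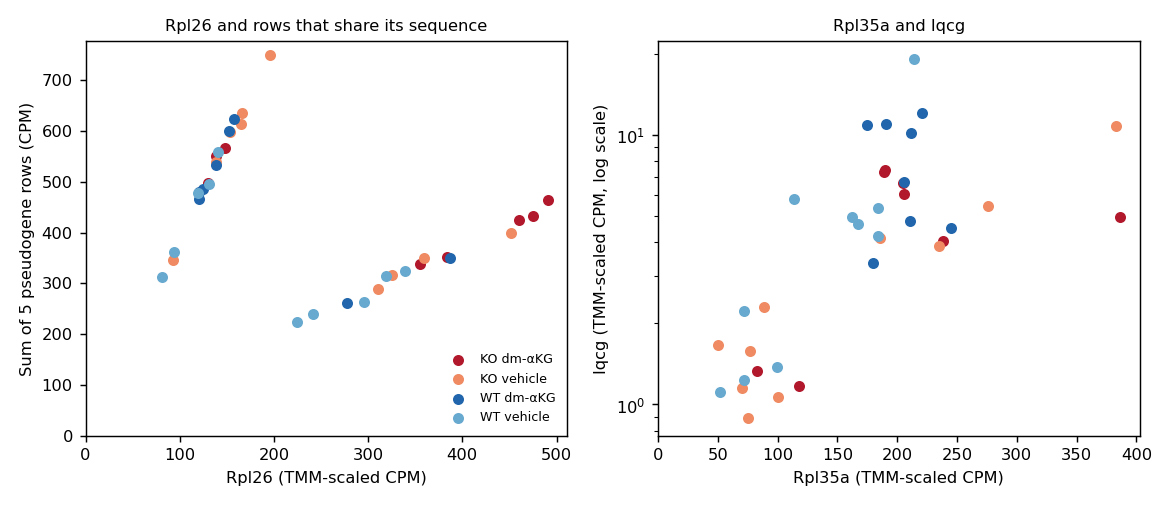
Left, TMM-scaled CPM of Rpl26 (x) against the sum of 5 pseudogene rows that share its sequence (y); right, Rpl35a (x) against its neighbour Iqcg (y, log scale). Each point is a library coloured by group; on the left the libraries fall on 2 lines, where Rpl26 takes about 51.5% or 20.6% of the sum, and each line holds libraries of all 4 groups.

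Shared sequence is the rule in this family. Of 83 members with a protein-coding transcript in GENCODE M21, 81 shared at least 50 words of 40 bases with another gene, with a median of 5 such genes. The rows so shared held at least 10% of the member's own counts for 62 members and more than the member itself for 7 (Rpl29, Rps27rt, Rpl26, Rpl7l1, Rpl34, Rpl24 and Rpl13a). Levels of single members are uncertain for this reason, and no source used here says how reads that match several rows were counted. These percentages compare all counts of the rows, so they do not measure how uncertain a level is. Rpl36al shared words with 2 rows that together held 96.3% of its counts, Rpl27 with rows that held 63.6% and Rpl7 with rows that held 30.3%. Rpl6 and Rpl6l, both called on average, are not separate in sequence: 45% of the words of Rpl6 occur in Rpl6l. Adding all 671 pseudogene rows to the members they resemble left 3 calls with vehicle and gave 9 on average, the 8 given above and Rpl26.

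The ribosomes of mitochondria, whose 78 nuclear-encoded proteins were tested in the same fits, had 15 genes higher and 0 lower with vehicle and a median of 0.17. With dm-αKG 4 were higher and 0 lower, with a median of 0.077, and on average 22 were higher and 0 lower. Over all genes 2.6% were called higher with vehicle, 1.12% with dm-αKG and 5.7% on average. Their calls were more numerous than those of the cytosolic set with vehicle (15 of 78 and 3 of 91), although their median was smaller. That difference was not tested.

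Of 70 factors that assemble ribosomes, 6 were higher and 0 lower with vehicle, 5 higher and 0 lower with dm-αKG, and 16 higher and 1 lower on average, with medians of 0.067, 0.18 and 0.15, against 2.6%, 1.12% and 5.7% of all genes called higher. Rpf2, which brings 5S RNA into the large subunit, stood at 16.6, 19.7 and 23.1 CPM in KO-Veh, against 12.3, 13.8 and 16.2 CPM in WT-Veh, and the lowest KO library lay above the highest WT library (log2 fold change 0.49, SE 0.08, edgeR adjusted p = 9.8e-05). It also rose with dm-αKG (0.37, SE 0.09, adjusted p = 0.02). Mrto4, which holds the place of the stalk during assembly, rose by 0.43 with vehicle (SE 0.08, edgeR adjusted p = 0.000569) and by 0.38 with dm-αKG (SE 0.09, adjusted p = 0.0132). Rcl1, which acts in small-subunit assembly, rose by 0.39 (SE 0.09, adjusted p = 0.0117) and by 0.69 (SE 0.10, adjusted p = 6.31e-05). Wdr74 and Nop16 rose with vehicle, and Gnl3 and Npm1 with dm-αKG. None of the 13 subunits of RNA polymerase I, which makes ribosomal RNA, passed with either treatment or on average by edgeR (0, 1 and 2 at an unadjusted p under 0.05).

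Other mRNAs with a TOP tract are translated with those of the ribosomal proteins. Of 24 such genes 3 were higher with vehicle and none lower (Eif3m, Eif3e and Btf3), with a median of 0.22, and 1 was higher with dm-αKG (Npm1), with a median of 0.078. Of 35 initiation factor genes 5 were higher with vehicle, 5 with dm-αKG and 11 on average, with 0, 0 and 1 lower. The shares of all genes called higher, for these lists as well, were 2.6% with vehicle, 1.12% with dm-αKG and 5.7% on average. Eif2s2, the β subunit of eIF2, stood at 119, 148 and 157 CPM in KO-Veh, against 80.3, 86.9 and 103 CPM in WT-Veh, with no overlap (log2 fold change 0.65, SE 0.09, edgeR adjusted p = 4.1e-06). Eif3c rose by 0.54 with vehicle (SE 0.11, adjusted p = 0.00231) and by 0.60 with dm-αKG (SE 0.12, adjusted p = 0.00445). Among 25 genes of mTORC1 and its S6 kinases 2 were higher with vehicle and none lower. Sesn2, which restrains mTORC1 when leucine is short, rose by 1.48 (SE 0.22, adjusted p = 3.7e-05), and Eif4ebp1, the repressor of cap-dependent translation that mTORC1 switches off, rose by 1.59 (SE 0.24, adjusted p = 5.97e-05). With dm-αKG Sesn2 rose by 1.47 (SE 0.25, edgeR adjusted p = 0.000499), and Eif4ebp1 had 0.90 (SE 0.27, adjusted p = 0.0821). These lists overlap, since Eif3m, Eif3e and Npm1 each stand in more than 1 of them.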

How the data were processed

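RNA from brain was sequenced with oligo-dT priming, molecular identifiers and tagmentation, per the labels' protocols. Per the submitters' processing notes, the builds named are mm39 and mm10 and the tools include HISAT2 2.2.1 and featureCounts 2.0.6, with no roles given. No source used here says which build the counts use, or whether molecular identifiers were collapsed or strand was used. The authors deposited estimated counts as whole numbers and a CPM table, which entered 1 alternative only. Counts were analysed as deposited.

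Genes were filtered with filterByExpr, scaled by TMM and tested with edgeR 4.0.16 (R 4.3.3) by its quasi-likelihood test over all 36 libraries in 4 groups, with Benjamini-Hochberg adjustment over 16255 genes and a threshold of 0.05. Levels are TMM-scaled CPM, and log2 levels use a prior count of 1. The scripts were tested on simulated data. Library totals were 5.77 to 13.3 M counts, which sets the precision of low genes. The members and lists were chosen with earlier results of these data known. Named genes were those called in any contrast, the 5 highest and 5 lowest members in each genotype effect, stalk, 5S, X-linked and paralogue members, and up to 5 called genes of each other list, except 1 gene that is not reported here. Rps27 and Rpl22 were added as counterparts, and Rpl26, Rpl35a and Rps2 for their spread after their values were seen. Of the 91 members 90 matched RefSeq. Alternatives were other scalings, no filter, DESeq2 1.42.0, limma 3.58.1 on log2(deposited CPM + 1), marker scores, a replicate block, summed pseudogene rows and libraries left out.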

Additional observations from a re-analysis of the deposited data

Results flagged for a closer look

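Of 132 sets of values examined within groups, 2 held a library far from the others, where chance alone gives about 1 in 20. Rpl7l1 stood at 32.1 CPM in WT-Veh replicate 1, a cerebellum-high library, and the next highest of the 10 WT-Veh libraries stood at 26.5 CPM (gap over range 0.554, critical value 0.466). Rpl29 stood at 9.04 CPM in WT-aKG replicate 1, and the next highest of the 8 WT-aKG libraries stood at 6.58 CPM (gap over range 0.541, critical value 0.526). The cause of either was not tested.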

How the results depend on the processing

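With edgeR, 3 members were called with vehicle, 0 with dm-αKG and 8 on average, and the same counts came with RLE factors, with mitochondrial genome rows left out and with -ps rows summed. Library totals without TMM gave 18, 9 and 65, and limma on the deposited CPM, which tested 85 of the 91, gave 10, 6 and 61. DESeq2 gave 7, 1 and 13. No filter on low counts gave 0 with vehicle and 3 on average, a fit of the compared groups only gave 0 with vehicle, and marker covariates gave 2 on average. Without the cerebellum-high libraries 0 were called in each. Leaving out 1 library gave 0 to 20 with vehicle, 0 to 1 with dm-αKG and 4 to 23 on average. Where leaving out 1 library moved these counts, the shares of all genes called are given above. Those shares are not given for DESeq2, no filter, the compared groups only, marker covariates, the replicate block or the fits without cerebellum-high libraries. Member counts in those fits therefore have no background beside them and are not read as a result about the members. Treatment effects and the interaction called 0 members in every setting run. Over all genes, totals called 227 of 256 as higher with vehicle, 290 of 300 with dm-αKG and 1274 of 1429 on average, against 422 of 701, 182 of 304 and 927 of 1930 with TMM. With limma these were 150 of 174, 211 of 216 and 854 of 965. Direction turned for some members that were never called there: with dm-αKG, library totals gave log2 fold changes of 0.0209 for Rpl28, 0.0849 for Rpl18 and 0.0208 for Rplp0, and limma gave 0.0218, 0.0938 and 0.0172 for the same genes. The median of all genes with dm-αKG was 0.142 with library totals and 0.136 with limma, against -0.0224 with TMM. These 3 genes thus stayed below the median of all genes in both settings. With vehicle, leaving out the cerebellum-high libraries gave -0.0089 for Rpl28 and 0.0034 for Rpl7l1. The cause of these turns was not tested, and fewer samples remained where libraries were left out. Replicate numbers were not used as pairs in the main fit. The median correlation of same-numbered deviations from the group means was 0.094, with 24 of 50 pairs over 0.1. For other numbers it was -0.019, with 162 of 434 pairs over 0.1. The replicate block gave 2 calls with vehicle, 1 with dm-αKG and 6 on average.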
